A study of Gallus gallus with 6 samples.

Results

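Genes of the Wnt, TGF-beta and BMP, FGF, Notch, IGF, PDGF and VEGF, ephrin and semaphorin families, with the LDL receptor-related proteins, were examined in bursal B-cells of the chicken embryo at embryonic day (ED) 16 and ED19. The genes were chosen by symbol from the table in which the authors listed the genes they called different between these stages, so that their difference between the stages is the choice itself and is described without a test. There were 104 such genes of 19219 in the count table. Of these, 96 belonged to the families and 8 were matched by their name only, such as the RNA-binding IGF2BP genes.

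Bursas were taken from Hy-Line W-36 layer embryos, a commercial White Leghorn type, without any treatment or genetic change named in the labels. Lymphocytes were isolated from cell suspensions of pooled bursas on a density gradient, and no sorting of B-cells after the gradient was stated. Each stage had 3 libraries of poly-A RNA, each from its own pool (ED16_1, ED16_2 and ED16_3; ED19_4, ED19_5 and ED19_6). A level is given as reads counted on the gene or as RPKM, reads per kilobase of gene length and per 1000000 counted reads, and a fold change as log2 of ED16 over ED19 with its standard error (SE), so that a positive value is higher at ED16.

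These families are the secreted and membrane-bound signals with which embryonic tissues pattern and grow: a ligand binds a receptor on a neighbouring cell, secreted antagonists hold the ligand back, and intracellular proteins such as the SMADs carry the signal to the nucleus. The bursa is a cloacal outgrowth in which B-cell precursors colonise an epithelium surrounded by mesenchyme. In embryonic tissues in general, ligands of these families are made mainly by epithelial, mesenchymal, endothelial and nerve cells, while lymphocytes carry some of the receptors. Which cells of the bursa make them was not measured here. Sequencing RNA of a cell preparation gives the sum over all its cells, and fewer cells of a type and less RNA per cell cannot be told apart in it.

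The libraries held 27087661 to 34614652 counts on genes. By the paper, ED16 had a lower average RNA integrity, and its libraries a higher GC content and a smaller share of mapped reads than those of ED19. The part of these in the differences below was not tested and cannot be told apart from the stage. With 3 counts taken as the floor of detection, a gene with no count in a library was below that floor, which covers counting error only since reads are not independent molecules. The preparation was checked against marker genes that had a symbol, which only genes called by the authors had. All 5 such B-cell markers, BLNK, BACH2, SYK, TNFRSF13C and RAG2, were present in every library and were higher at ED19, with a summed RPKM of 156 to 185 at ED16 and 347 to 511 at ED19. The 9 tested epithelial markers were all higher at ED16, and the 11 measured ones summed to 303, 194 and 136 RPKM in ED16_1, ED16_2 and ED16_3 against 5.44 to 7.18 at ED19. Kidney markers summed to 167, 66.2 and 54.6 RPKM against 1.36 to 1.57, with PIPOX and AGXT at 0 in all ED19 libraries and CALB1 going the other way (0.342 to 0.416 RPKM at ED16 and 1.14 to 1.2 at ED19, most of the ED19 sum), and neuron and glia markers to 91.4, 63.5 and 48.4 against 2.37 to 4.75. Fibroblast markers summed to 19.3 to 22.4 RPKM at ED16 and 3.97 to 5.77 at ED19, with TWIST1 at 0 there, and erythroid markers to 1910 to 2610 and 68.2 to 121. Endothelial markers overlapped as a sum (9.98 to 12.5 and 4.99 to 14.4), with PECAM1, which leukocytes also make, higher at ED19 and the endothelial VWF at 0 there. Smooth muscle markers summed to 11.6 to 18.9 RPKM at ED16 and 2.33 to 3.85 at ED19, with 3 of 4 tested higher at ED16. Other leukocytes moved as well: all 7 T-cell markers were higher at ED16, with sums of 266 to 349 and 125 to 214 RPKM. Most of these sums came from CD3D, with 229, 254 and 219 RPKM at ED16 and 126, 115 and 205 at ED19. Its log2 fold change was 0.67 ± 0.26 and ran from -0.0018 to 1.03 with other processing. Of 6 granulocyte and macrophage markers, 5 were higher at ED16. The granulocyte and macrophage sum was higher at ED19 (205 to 231 and 279 to 287 RPKM), most of it from SPI1, which B-cells also make. The part of these cells in the values below was not tested.

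More mRNA was found at ED16 for 86 of the 104 genes and at ED19 for 18. In normalized counts, 103 of them had no overlap between ED16 and ED19 libraries, the exception being BMPR-II, while 71.5% of all 13923 tested genes did not overlap. Counts were high enough in 93 of the 104 for edgeR, which called 75 higher at ED16 and 18 higher at ED19, against 35.6% and 30.8% of all tested genes. These counts follow from the way the genes were chosen, and nothing is read from them. The authors' calls did not set the direction, but the families were chosen with earlier results of these data known. The direction is therefore described only: 82.7% of the 104 genes had more mRNA at ED16, as did 57.5% of the 7173 called genes with a symbol. The median log2 fold change of the 93 tested genes was 2.36. It was 2.27 when untested genes without a count at ED19 were added and all genes without such a count were set to their lower bound. Over all tested genes it was 0.05, but these include genes that were not called, so the gap follows in part from the choice. Nearest to no change were SMAD3 (-0.71 ± 0.21) and FGF12 (0.74 ± 0.19), and just outside the choice lay the uncalled receptor FZD6 (0.39 ± 0.24).

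**Figure D1:**
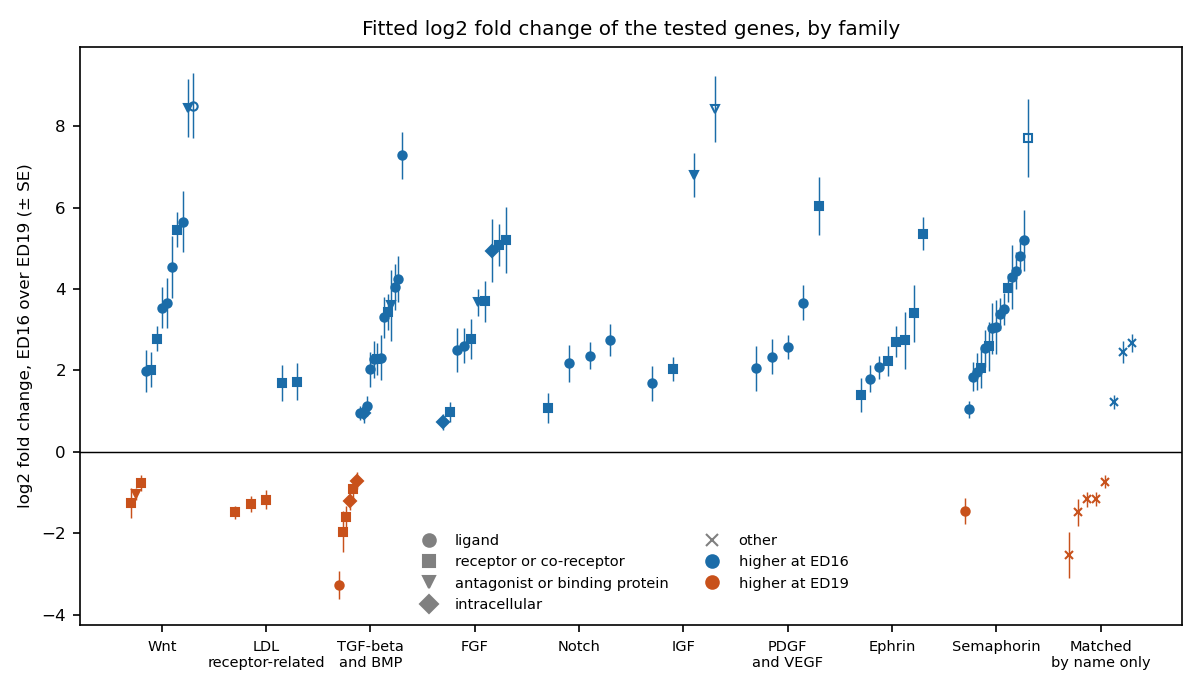
Fitted log2 fold change, ED16 over ED19, of the 93 tested genes with its SE, by family, with the symbol giving the role and the colour the stage with more mRNA. Open symbols mark 3 genes without a count at ED19, whose fitted value depends on the prior count. All genes of the FGF, Notch, IGF, PDGF and VEGF, and ephrin families lie above 0, and the 18 below 0 come from the Wnt, LDL receptor-related, TGF-beta and BMP and semaphorin families and the genes matched by name only.

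The direction differed in level and in size. Genes higher at ED16 were mostly scarce: their median RPKM at ED16 was 0.844 (0.0636 to 25.4), 48 of the 86 were below 1, and 3 reached 10. Those with any read at ED19 differed by a median of 6.6-fold, and 29 of them by 10-fold or more. Genes higher at ED19 were abundant, with a median RPKM of 18.0 at ED19 (0.947 to 157) and 12 of 18 at 10 or above, and they differed by a median of 2.35-fold (1.64 to 9.62). The same order held among all genes that edgeR called, a set other than the authors' calls. Those higher at ED16 had a median RPKM of 5.06 and a median fitted difference of 3.56-fold, and those higher at ED19 16.3 and 2.16-fold. At ED19, 13 of the genes had no count in any library.

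**Figure D2:**
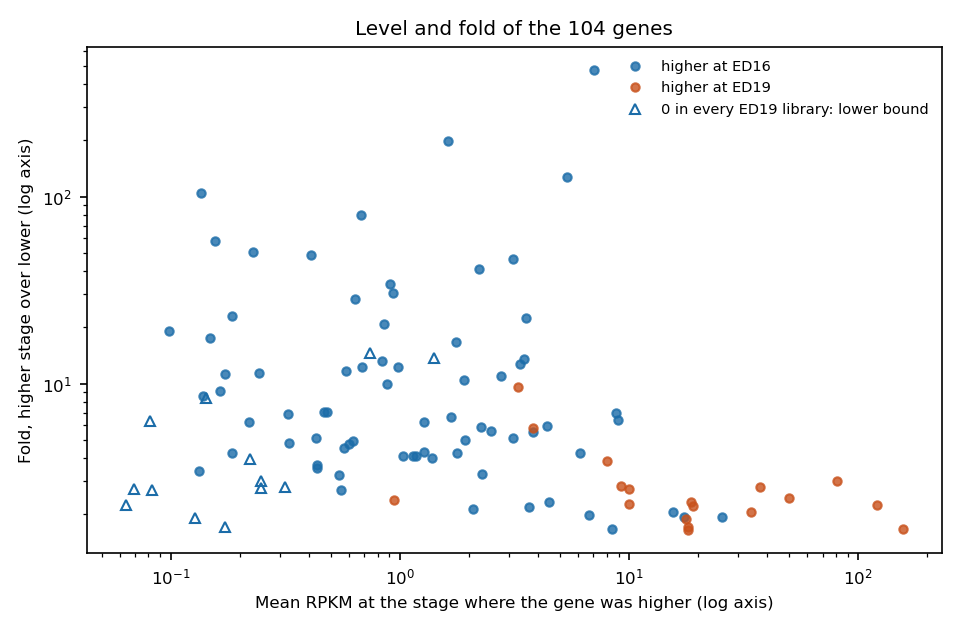
Mean RPKM at the stage where each of the 104 genes was higher against its fold at that stage, both on log axes. Triangles are the 13 genes without a count at ED19, whose fold is a lower bound. Genes higher at ED19 lie at the right and low (12 of 18 at 10 RPKM or above), and those higher at ED16 spread over low levels and high folds.

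All 8 Wnt ligands were higher at ED16, and none reached an RPKM of 1 in the mean. WNT4, a ligand of epithelial tubule formation, had 52, 40 and 44 reads at ED16 and 3, 7 and 1 at ED19 (log2 fold change 3.54 ± 0.51). The mesenchymal, non-canonical ligand WNT5A had 62, 40 and 37 reads at ED16 and none at ED19, at least 14.5-fold higher. Its close relative WNT5B had 32, 23 and 16 reads against 1, 0 and 0, a ratio of 68.6 with a 95% counting interval of 11.9 to 2750. WNT6 and WNT10A, both known from surface epithelia, stood out for 1 library. WNT6 had 47, 16 and 18 reads at ED16 and 2, 1 and 0 at ED19 (ratio 26.1, 8.61 to 129). WNT10A had 69, 27 and 30 reads against 1, 4 and 4 (3.65 ± 0.62). In both, ED16_1 had more than the other ED16 libraries together. ED16_1 also had the highest epithelial, kidney, neuron and glia, erythroid, fibroblast and smooth muscle marker sums. The endothelial, T-cell, granulocyte and macrophage, and B-cell sums were highest in other ED16 libraries among those of that stage, and the source of the reads was not tested. WNT7B differed least, with 16, 18 and 15 reads against 7, 4 and 1 (1.98 ± 0.52), and WNT9A and WNT16 had too few counts to be tested (29 and 40 reads at ED16 in all, and 0 and 2 at ED19). Summed over the 8 ligands, the ligand RPKM came to 5.54, 3.82 and 3.42 in the ED16 libraries and to 0.231, 0.336 and 0.118 in the ED19 libraries.

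The Frizzled receptors, which bind Wnt with their extracellular domain, did not move as 1 group. FZD8 was the most abundant, with 9.68, 7.0 and 9.57 RPKM at ED16 and 1.65, 1.32 and 1.0 at ED19 (2.78 ± 0.30). FZD7, which is common in epithelial and stem cell populations, had 4.35, 2.56 and 2.45 RPKM against 0.109, 0.068 and 0.0363 (5.46 ± 0.43), the largest difference among the tested Frizzled genes. FZD2 lay between, at 1.51, 1.16 and 0.861 RPKM against 0.246, 0.497 and 0.161 (2.02 ± 0.44), and FZD10 had 10, 10 and 17 reads at ED16 and none at ED19, at least 3.94-fold higher. By contrast, FZD1, FZD3 and FZD6 had similar levels at the stages. FZD1 had 5.14, 3.76 and 4.05 RPKM at ED16 and 4.74, 4.77 and 2.33 at ED19, which is 0.20 ± 0.27 on the log2 scale (edgeR, adjusted p = 0.53). FZD3 had 0.875, 1.28 and 1.21 RPKM against 0.828, 0.925 and 0.967 (0.35 ± 0.25, edgeR, adjusted p = 0.25), and FZD6 1.24, 1.63 and 1.33 against 1.14, 1.43 and 0.781 (0.39 ± 0.24, edgeR, adjusted p = 0.18). The libraries of the stages overlapped for all 3, which were known by name because the paper lists their identifiers and which the authors had not called in the same libraries, so that these tests are not independent of that. A correction for gene length gave 0.77 for FZD3 and 0.88 for FZD6 and put both past the threshold.

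Of the co-receptors LRP5 and LRP6, which join a Frizzled protein in canonical Wnt signaling, LRP5 overlapped between the stages like FZD1, FZD3 and FZD6. LRP6 and the pseudokinase receptor RYK followed neither pattern. LRP5 had 1.52, 2.23 and 2.65 RPKM at ED16 and 2.54, 2.77 and 1.74 at ED19, with a log2 fold change of -0.08 ± 0.25 (edgeR, adjusted p = 0.80) whose sign changed with the processing. LRP6 was higher at ED19, with 55, 77 and 73 reads at ED16 and 232, 190 and 75 at ED19 (-1.26 ± 0.36). ED19_6 was close to the ED16 libraries there, and the difference was no longer past the edgeR threshold with the correction for gene length (-0.75) or without ED16_1 (-1.08). RYK was more abundant than any measured Frizzled gene at ED19, with 9.35, 10.2 and 11.6 RPKM at ED16 and 17.7, 15.6 and 20.8 at ED19 (-0.76 ± 0.20), without overlap and without a low ED19_6.

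The secreted Wnt antagonists went opposite ways. DKK-1, which blocks LRP5 and LRP6, had 236, 171 and 91 reads at ED16 and a single read at ED19 (0, 1 and 0), a ratio of 481 with a 95% counting interval of 86.0 to 19000, the largest ratio among the genes with a read at ED19. SFRP1, a soluble Frizzled-like protein that binds Wnt, had 15.7, 15.7 and 16.3 RPKM at ED16 and 35.4, 38.9 and 27.5 at ED19 (-1.04 ± 0.14). SFRP5, of the same family, had 4, 7 and 5 reads at ED16 and none at ED19. The total over the 17 Wnt family genes hid this, at 49.1 to 56.1 RPKM at ED16 and 50.1 to 57.9 at ED19. RYK and SFRP1 together made up 44.7% to 56.8% of that total at ED16 and 93.9% to 96.4% at ED19, while the other 15 genes summed to 21.2 to 31.0 RPKM and 1.8 to 3.45. These shares hold for the called genes only. The uncalled FZD1, FZD3, FZD6 and LRP5 are not in the total. They had mean RPKM of 4.31, 1.12, 1.4 and 2.13 at ED16 and of 3.95, 0.907, 1.11 and 2.35 at ED19, so with them the ED19 share would be lower.

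**Figure D3:**
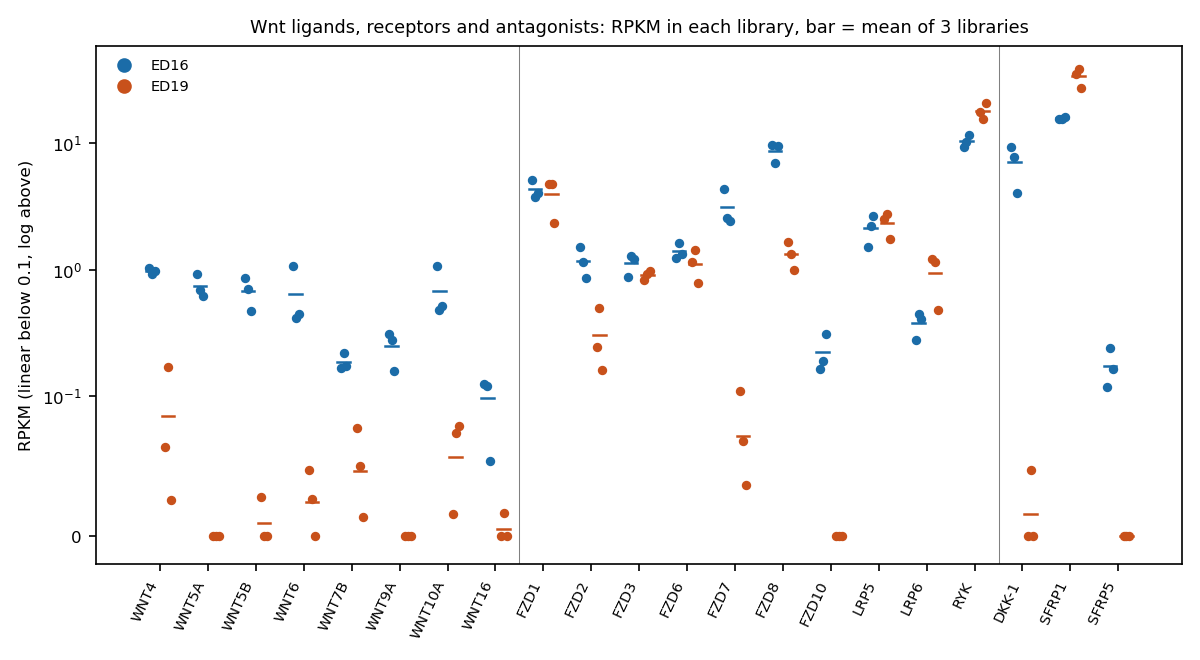
RPKM of the 17 Wnt family genes and of FZD1, FZD3, FZD6 and LRP5 in each library (points) with the mean of 3 libraries (bar), on an axis that is linear below 0.1 and logarithmic above, with grey lines between ligands, receptors and antagonists. The ligands lie near or below 1 RPKM at ED16 and near 0 at ED19, FZD1, FZD3, FZD6 and LRP5 overlap between the stages, and RYK, LRP6 and SFRP1 are higher at ED19.

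The other LDL receptor-related proteins split as well. LRP3, LRP8 and LRP12 were higher at ED19, and LRP1 and LRP4 at ED16. LRP3 was the most abundant, with 19.2, 21.9 and 17.3 RPKM at ED16 and 54.6, 62.0 and 33.0 at ED19 (-1.29 ± 0.20). LRP8, the reelin receptor of neurons, had 3.11, 4.18 and 5.45 RPKM against 10.2, 11.8 and 7.99 (-1.18 ± 0.23), and LRP12 had 2.76, 3.22 and 3.52 against 9.74, 9.86 and 8.18 (-1.49 ± 0.15). In none of the 3 did the stages overlap. LRP1, a large endocytic receptor, had 2.36, 2.94 and 1.58 RPKM at ED16 and 0.862, 1.12 and 0.252 at ED19 (1.70 ± 0.44). LRP4, which serves agrin at the neuromuscular junction, was scarce at 0.156, 0.146 and 0.0987 RPKM against 0.07, 0.0342 and 0.0203 (1.72 ± 0.45).

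Among the 20 TGF-beta and BMP genes, 9 of 10 ligands were higher at ED16, whereas the abundant receptors and the receptor-activated SMAD3 and SMAD5 were higher at ED19. SMADs that the authors did not call are left out. TGFB3 was the most abundant ligand, with 19.0, 19.1 and 14.3 RPKM at ED16 and 9.37, 9.42 and 9.11 at ED19 (0.95 ± 0.17). BMP4, a mesenchymal ligand, had 131, 88 and 160 reads at ED16 and 1, 1 and 0 at ED19, a ratio of 183 (50.3 to 1520). BMP7, an epithelial ligand, remained measurable, with 2.59, 3.9 and 4.55 RPKM against 1.62, 2.04 and 1.58 (1.13 ± 0.25). For BMP4 and BMP7 the highest library was ED16_3, not ED16_1. BMP2, BMP5 and BMP6 had mean RPKM of 1.03, 0.148 and 0.852 at ED16 and of 0.258, 0.00883 and 0.0439 at ED19. TGFB2 (2.27 ± 0.45) and the activin subunits INHBA (2.31 ± 0.55) and INHBB (3.30 ± 0.51) all lay below an RPKM of 1. BMP3, a ligand that opposes other BMPs in mammals, was the exception. It had 35, 62 and 50 reads at ED16 and 654, 518 and 257 at ED19 (-3.27 ± 0.34), the largest difference among the 18 of the 104 genes that were higher at ED19, and its ED19 libraries were all above 4 times its highest ED16 library.

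Among the 6 receptors examined, which leave out any the authors did not call, the type II receptors made up most of the mRNA. These are kinases that activate the type I receptors. TGFBR2, the receptor of TGF-beta itself, had 1428, 1521 and 1731 reads at ED16 and 6404, 5685 and 2220 at ED19, or 80.5 RPKM in the ED19 mean (-1.60 ± 0.28). ACVR2A, an activin receptor, had 7.96, 9.73 and 9.2 RPKM against 20.8, 22.6 and 9.96 (-0.92 ± 0.26), which was not past the edgeR threshold without ED16_1 (-0.84). BMPR-II, the type II receptor of BMPs, had 1.78, 2.37 and 1.67 RPKM against 10.7, 11.3 and 2.07 (-1.96 ± 0.50). In all 3 the libraries ED19_4 and ED19_5 were close and ED19_6 was far lower, within the ED16 range for BMPR-II and next to it for ACVR2A. Without ED19_6 the log2 fold change was -2.44 for BMPR-II and -1.92 for TGFBR2. The receptors higher at ED16 were less abundant, each taken at its higher stage, though at ED16 itself ACVRL1 was above BMPR-II. ACVRL1, a type I receptor of endothelium, had 3.36, 3.04 and 1.88 RPKM against 0.447, 0.142 and 0.197 (3.43 ± 0.44), TGFBR3, the co-receptor betaglycan, had 0.294, 0.444 and 0.248 against 0.0599, 0.0578 and 0.0896 (2.28 ± 0.39), and ACVR2B had 13, 5 and 1 reads at ED16 and none at ED19. Summed, the 6 receptors had 34.7, 41.5 and 41.4 RPKM at ED16 and 131, 135 and 54.2 at ED19, and the 10 ligands 27.6, 28.8 and 24.6 against 15.9, 15.6 and 13.3.

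SMAD5, which carries BMP signals, had 6.11, 8.38 and 8.5 RPKM at ED16 and 20.4, 22.6 and 12.8 at ED19 (-1.21 ± 0.21). SMAD3, which carries TGF-beta and activin signals, had 8.98, 12.3 and 10.2 RPKM against 21.1, 21.6 and 11.5 (-0.71 ± 0.21), so that ED19_6 was below ED16_2 in RPKM though not in normalized counts. The difference was not past the edgeR threshold without ED16_1 (-0.61) or ED19_5 (-0.60), with upper-quartile factors (-0.51) or with the length correction (-0.36). The inhibitory SMAD7, listed as SMAD7A, went the other way, with 1524, 1691 and 1003 reads at ED16 and 973, 733 and 448 at ED19 (0.95 ± 0.23). BMPER, a secreted BMP-binding protein, had 19, 13 and 11 reads at ED16 and 0, 0 and 3 at ED19, a ratio of 13.8 (4.43 to 69.8).

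**Figure D4:**
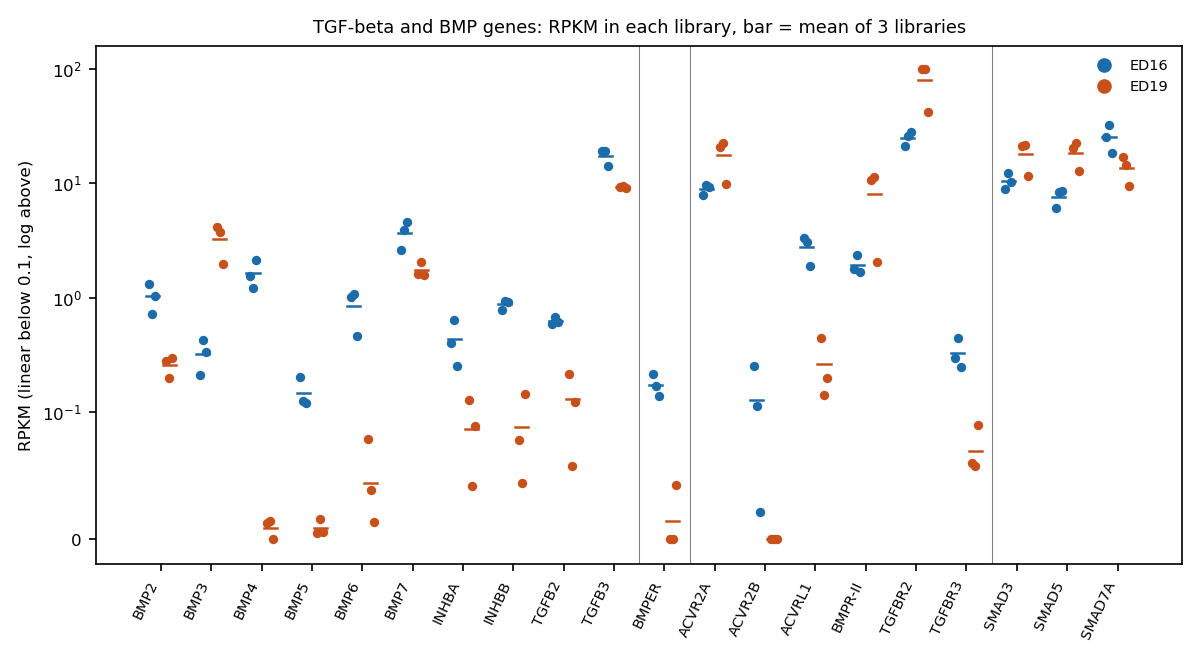
RPKM of the 20 TGF-beta and BMP genes in each library (points) with the mean of 3 libraries (bar), on an axis that is linear below 0.1 and logarithmic above, with grey lines between ligands, the binding protein, receptors and SMADs. All ligands but BMP3 are higher at ED16, and TGFBR2, ACVR2A, BMPR-II, SMAD3 and SMAD5 are higher at ED19 with 1 low ED19 library, ED19_6.

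All 11 FGF genes were higher at ED16. The receptors, tyrosine kinases that differ in the ligands they bind, were all highest in ED16_1. FGFR4 was the most abundant, with 8.88, 6.7 and 4.59 RPKM at ED16 and 3.65, 3.6 and 3.31 at ED19 (0.98 ± 0.24). FGFR1, typical of mesenchyme, had 4.33, 3.58 and 2.53 RPKM against 0.529, 0.213 and 0.0884 (3.70 ± 0.50), and FGFR2, typical of epithelia, 1.18, 0.938 and 0.603 against 0.0112, 0.051 and 0.0204 (5.08 ± 0.52). The log2 fold change without ED19_4 was 4.51 for FGFR1, and without ED19_5 it was 5.82 for FGFR2. FGFR3 (2.77 ± 0.49) and FGFRL1, which lacks the kinase (26, 14 and 12 reads against 1, 0 and 0), were below an RPKM of 1. The FGF receptor sum came to 15.3, 11.8 and 8.09 RPKM at ED16 and 4.32, 3.92 and 3.46 at ED19. The epithelial and 5 other marker sums had the same ED16 order, while the endothelial, T-cell, granulocyte and macrophage, and B-cell sums did not. The source of the reads was not tested.

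The 3 called FGF ligands summed to 5.4, 3.86 and 2.23 RPKM at ED16, below the 5 called receptors in each library. FGF22 had 3.65, 2.38 and 1.45 RPKM at ED16 and 0.457, 0.196 and 0.695 at ED19 (2.50 ± 0.55), and FGF1 1.71, 1.35 and 0.755 against 0.281, 0.173 and 0.184 (2.61 ± 0.43). FGF7, the mesenchymal ligand of epithelial FGFR2, had only 5, 13 and 3 reads at ED16 and none at ED19. FGF12 and FGF13 are intracellular relatives that bind sodium channels and are not secreted. FGF12 had 9.38, 7.5 and 8.46 RPKM against 5.05, 5.43 and 5.23 (0.74 ± 0.19), the smallest difference in the family, and FGF13 had 15, 17 and 11 reads against 1, 0 and 0. FGFBP1, which releases FGFs from the matrix, had 3.72, 3.69 and 2.66 RPKM against 0.205, 0.322 and 0.281 (3.67 ± 0.34).

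In the Notch family, in which binding of a ligand on a neighbouring cell leads to cleavage of the receptor, all 4 genes were higher at ED16. DLL1 had 3.84, 3.73 and 1.83 RPKM at ED16 and 0.695, 0.528 and 0.653 at ED19 (2.36 ± 0.33). JAG1 (2.17 ± 0.45) and JAG2 (2.74 ± 0.39) lay below an RPKM of 1. NOTCH1, the receptor, had 2.29, 2.46 and 1.5 RPKM against 1.42, 1.27 and 0.422 (1.08 ± 0.37), the smallest difference of the 4, with ED16_3 next to ED19_4. It was past the edgeR threshold with all libraries but not without ED16_1 (1.01) or without ED16_2 (0.97), nor in limma on log2(RPKM + 1) or log2(RPKM + 0.1).

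The 4 IGF genes were higher at ED16. The gene listed as IGF-I (ENSGALG00000007039) carries the domains of an insulin-like receptor tyrosine kinase in the same table, and no insulin family domain, so it is grouped here with the receptors, against its name. It had 1.36, 1.23 and 0.828 RPKM at ED16 and 0.352, 0.288 and 0.226 at ED19 (2.03 ± 0.29). IGF2, the growth factor, had 50, 26 and 26 reads against 10, 14 and 6 (1.69 ± 0.43). The secreted IGF-binding proteins differed more. IGFBP4 had 173, 114 and 103 reads at ED16 and 2, 0 and 1 at ED19, a ratio of 126 (42.7 to 612), and IGFBP5 50, 49 and 32 reads at ED16 and none at ED19, at least 13.7-fold higher.

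All 8 PDGF and VEGF genes were higher at ED16. Among them the 5 ligands had more mRNA in sum than the 3 receptors, and receptors outside the choice were not summed. PDGFB, a ligand made by endothelium and macrophages, had 5.06, 4.53 and 3.65 RPKM at ED16 and 0.821, 0.606 and 0.852 at ED19 (2.57 ± 0.29), and PDGF-A 2.02, 2.22 and 1.53 against 0.322, 0.257 and 0.587 (2.34 ± 0.43). VEGFC, a growth factor of lymphatic vessels, had 141, 172 and 143 reads against 22, 10 and 4 (3.66 ± 0.43, or 4.25 without ED19_4). VEGFA, the main factor of blood vessel growth, had 65, 50 and 37 reads against 25, 3 and 8 (2.05 ± 0.56), most of its ED19 reads coming from ED19_4, without which the log2 fold change was 2.94. PDGFD had 17, 5 and 5 reads at ED16 and none at ED19. The receptors are known from connective tissue and vessels, and their source here was not tested. PDGFRA, a fibroblast receptor, had 38, 34 and 21 reads at ED16 and 1, 0 and 0 at ED19, a ratio of 89.8 (15.7 to 3590). PDGFRB, of pericytes, had 8, 14 and 4 reads and KDR, the endothelial VEGF receptor, 29, 22 and 10, and neither had a count at ED19, which bounds the difference at 2.74-fold and 6.31-fold.

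Ephrins and their EPH receptors, which repel cells on contact and keep tissue boundaries, were all higher at ED16. EFNB1 was the most abundant ligand, with 7.25, 6.14 and 4.91 RPKM at ED16 and 1.71, 1.71 and 1.08 at ED19 (2.08 ± 0.28), while EFNB2 stayed below an RPKM of 1 at both stages (1.80 ± 0.33). EFNA5 had 12, 7 and 8 reads at ED16 and none at ED19. EPHB3, a receptor of intestinal epithelium, had 2.68, 2.29 and 1.66 RPKM against 0.0618, 0.0264 and 0.0752 (5.36 ± 0.41), the largest difference among the 6 receptors. EPHA2, also epithelial, had 2.21, 1.56 and 1.24 RPKM against 0.382, 0.174 and 0.232 (2.71 ± 0.37). EPHA1, EPHB1 and EPHB2 had log2 fold changes of 3.41 ± 0.70, 2.23 ± 0.36 and 2.74 ± 0.70, and EPHA4 had the smallest at 1.40 ± 0.42. Without ED19_5, EPHA1 was at 4.72 and EPHB2 at 3.45. The sum over the 9 genes was 15.0, 12.9 and 9.91 RPKM in ED16_1, ED16_2 and ED16_3, and 2.84, 2.63 and 1.7 at ED19. The epithelial, kidney, neuron and glia, erythroid, fibroblast and smooth muscle marker sums had the same ED16 order. The endothelial, T-cell, granulocyte and macrophage, and B-cell sums did not, and the source of the reads was not tested.

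Semaphorins, which steer axons, vessels and migrating leukocytes, were higher at ED16 in 17 of 18 genes of the family. The class 3 members are secreted. SEMA3B was the most abundant, with 5.43, 3.15 and 2.06 RPKM at ED16 and 0.195, 0.156 and 0.143 at ED19 (4.45 ± 0.46), more in ED16_1 than in the other ED16 libraries together. SEMA3F had 116, 89 and 94 reads at ED16 and 5, 4 and 1 at ED19 (4.82 ± 0.42), evenly over the ED16 libraries. SEMA3C (3.03 ± 0.62, or 3.71 without ED19_4), SEMA3D (1.97 ± 0.46) and SEMA3G (3.51 ± 0.39) lay below SEMA3B in RPKM at ED16, and SEMA3A had 12, 7 and 7 reads at ED16 and none at ED19.

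The membrane-bound class 4 members split between the stages. SEMA4D (CD100), which T and B lymphocytes carry in mammals, was the only semaphorin higher at ED19, with 2.73, 4.49 and 3.19 RPKM at ED16 and 11.8, 13.1 and 5.05 at ED19 (-1.45 ± 0.32) and with ED19_6 next to the ED16 range. SEMA4B was the most abundant semaphorin at ED16, with 16.8, 14.8 and 15.3 RPKM against 6.94, 7.21 and 9.2 (1.04 ± 0.20), and SEMA4G had 3.34, 2.11 and 1.36 against 0.66, 0.222 and 0.329 (2.54 ± 0.46). SEMA6C had 2.28, 2.28 and 1.17 RPKM at ED16 and 0.162, 0.17 and 0.227 at ED19 (3.39 ± 0.39). SEMA5A, SEMA5B, SEMA6A and SEMA6D had at most 0.435 RPKM in the mean at either stage. The neuropilins, co-receptors of class 3 semaphorins and of VEGF, and the plexins, the signaling receptors, were all higher at ED16. NRP1 had 1.74, 2.05 and 1.49 RPKM against 0.159, 0.0726 and 0.0968 (4.03 ± 0.34), and NRP2 1.73, 2.21 and 1.36 against 0.665, 0.562 and 0.112 (2.05 ± 0.49). PLXNB2 had 78, 74 and 45 reads against 13, 18 and 1 (2.59 ± 0.60, or 3.21 without ED19_5), and PLXNA4 34, 16 and 30 at ED16 and none at ED19, at least 8.35-fold higher.

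Of the 8 genes that only share a name with a family, 5 were higher at ED19 and none was below an RPKM of 1 at both stages. IGF2BP3, an RNA-binding protein of embryonic cells, was the most abundant of the 104 genes, with 78.0, 92.5 and 103 RPKM at ED16 and 155, 163 and 152 at ED19 (-0.74 ± 0.16), while IGF2BP1 (4.36, 4.62 and 4.46 against 2.05, 2.28 and 1.67; 1.22 ± 0.17) and IGF2BP2 (2.45 ± 0.28) were higher at ED16. FGFR1OP, a centrosomal protein, had 7.43, 8.44 and 9.19 RPKM against 17.6, 19.2 and 20.4 (-1.15 ± 0.17), and FGFR1OP2 42.6, 50.2 and 63.1 against 114, 127 and 121 (-1.17 ± 0.19). Both were as high in ED19_6 as in the other ED19 libraries. BMP2K, a kinase of endocytosis, had 9.9, 13.2 and 14.5 RPKM against 46.0, 49.6 and 16.3 (-1.49 ± 0.34), and TGFBRAP1, a vesicle-tethering protein, 39, 53 and 60 reads against 441, 407 and 65 (-2.54 ± 0.57), both with ED19_6 close to ED16. TGFBI, a matrix protein induced by TGF-beta, had 9.23, 10.8 and 6.73 RPKM at ED16 and 1.69, 1.48 and 1.17 at ED19 (2.67 ± 0.22).

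Single libraries stood apart from the others of their stage. For the 86 genes higher at ED16, the normalized count of ED16_1 was a median of 1.31 times the mean of ED16_2 and ED16_3 (0.557 to 3.87). It was 1.16 for all genes that edgeR called higher at ED16 and 0.993 for all tested genes. ED16_1 was the highest ED16 library for 55 of the 104 genes, among them 7 of 8 Wnt ligands and all FGF receptors, and for 34.1% of tested genes. For the 18 genes higher at ED19, ED19_6 was a median of 0.641 times the mean of ED19_4 and ED19_5 (0.203 to 1.45) and below it in 14. For all genes that edgeR called higher at ED19, the median was 0.852 and 67.0% were below. A low ED19_6 was not limited to these genes. Among the 86 genes higher at ED16, most with few ED19 reads, the same ratio had a median of 0.78 where it could be formed (0 to 2.87). It was below 1 in 49 of them. Leaving out ED19_4 moved the fitted fold of 14 of the 93 genes by more than 1.5 times, leaving out ED19_5 that of 8 and leaving out ED19_6 that of BMPER (from 3.60 to 6.86), all of them higher at ED16 with few ED19 reads. DKK-1 went from 8.44 to 10.3 and WNT4 from 3.54 to 4.37 without ED19_5. No ED16 library moved any fold that far. None of the 104 genes changed direction among those of the 15 fits that held it, while the uncalled FZD1 and LRP5 did change sign.

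**Figure D5:**
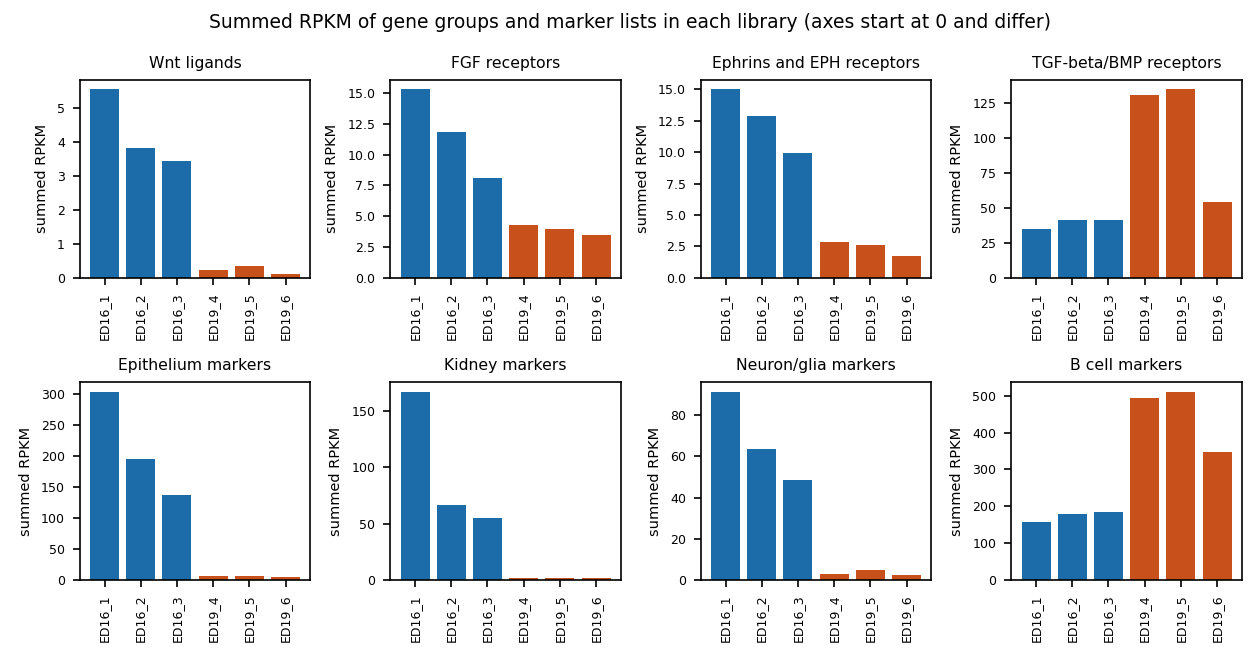
RPKM summed over the genes of 4 signaling groups (upper row) and of 4 marker lists (lower row) in each library, with axes that start at 0 and differ between panels. The Wnt ligand, ephrin and FGF receptor sums fall in the order ED16_1, ED16_2, ED16_3. So do the epithelial (303, 194 and 136), kidney, and neuron and glia sums. The TGF-beta and BMP receptor (34.7, 41.5 and 41.4) and B-cell marker (156, 180 and 185) sums do not. ED19_6 is the lowest ED19 library in every panel, among them the TGF-beta and BMP receptors (54.2), the epithelial markers (5.44) and the B-cell markers (347).

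Genes of these pathways were also listed by symbol, with BMPER, described above, among them. Only genes that the authors had called, and those with a listed identifier, had a symbol, so 94 of 198 listed genes could be found and the counts are a description. Of 91 tested, edgeR called 64 higher at ED16 and 26 at ED19, against 35.6% and 30.8% of all tested genes. That nearly all were called follows from the choice. The direction in these lists stands beside the 57.5% of called genes with a symbol that had more mRNA at ED16. In the Wnt list, 13 of 17 tested genes were higher at ED16 and 4 at ED19. DVL3, which relays the Frizzled signal, had 40.8, 38.8 and 38.5 RPKM at ED16 and 26.1, 27.9 and 18.4 at ED19 (0.76 ± 0.15), and CSNK1A1, a kinase of the beta-catenin destruction complex, 66.1, 76.9 and 83.7 against 173, 188 and 133 (-1.07 ± 0.15). The Wnt target AXIN2 was scarce, at 0.294, 0.331 and 0.22 RPKM against 0.0431, 0.0246 and 0.0262 (3.17 ± 0.42).

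In the TGF-beta and BMP list, 10 of 17 genes, BMPER included, were higher at ED16 and 7 at ED19. ID2, a BMP target that restrains B-lineage transcription factors in mice, had 206, 224 and 170 RPKM at ED16 and 27.3, 28.1 and 35 at ED19 (2.76 ± 0.20). ID1 (3.46 ± 0.40) and ID3 (1.83 ± 0.20), of the same family, were also higher at ED16. The ubiquitin ligases SMURF1 (-2.04 ± 0.36) and SMURF2 (-1.31 ± 0.36) and the SMAD repressors SKI (-1.59 ± 0.40) and SKIL (-2.12 ± 0.27) were higher at ED19, as was TWSG1, a BMP-binding protein, with 15.8, 17.9 and 19.3 RPKM against 34.2, 33.8 and 30.0 (-0.84 ± 0.14). SMURF2 and SKI had a low ED19_6. It was at 1.72 RPKM for SMURF2, against 1.75 in ED16_2, and at 1.7 for SKI, against 1.54 in ED16_3. The BMP antagonist NOG had no count at ED19.

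Of the 16 Notch pathway genes, 8 were higher at ED16 and 7 at ED19. DTX4, a Notch ubiquitin ligase, had 104, 110 and 113 RPKM at ED16 and 37.0, 42.6 and 31.2 at ED19 (1.62 ± 0.14), and the target genes HES1 (2.01 ± 0.33), HEYL (no count at ED19) and NRARP (2.61 ± 0.39) were on the same side. MIB1, which activates the ligands, had 13.9, 16.7 and 18.6 RPKM against 60.0, 69.0 and 35.2 (-1.67 ± 0.22), and the receptor-cleaving ADAM10 (-1.40 ± 0.29) and ADAM17 (-0.69 ± 0.21) were also higher at ED19. For ADAM17, ED19_6 had 20.2 RPKM and ED16_2 20.6, though normalized counts did not overlap. Its log2 fold change ran from -0.94 to -0.34 with other processing. MAML3 did not pass the test (1.04 ± 0.45, edgeR, adjusted p = 0.07).

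Hedgehog genes were higher at ED16 in 6 of 8. SMO, the signal transducer, had 4.1, 4.05 and 3.64 RPKM at ED16 and 0.545, 0.566 and 0.592 at ED19 (2.83 ± 0.22), SHH, an epithelial ligand, 1.48, 0.994 and 0.521 against 0.0394, 0.0675 and 0 (4.74 ± 0.70), and DISP1, which releases the ligand, 1.22, 1.28 and 1.01 against 3.02, 2.94 and 1.41 (-1.0 ± 0.27, or -0.51 and not past the threshold with the length correction). Of 17 other receptor tyrosine kinase genes, 15 were higher at ED16, among them the adaptor SHC1 at 78.1, 69.4 and 62.4 RPKM against 25.1, 24.7 and 23.7 (1.56 ± 0.14), and 2 at ED19, the adaptor FRS2 (-3.32 ± 0.56) and the exchange factor SOS1 (-0.71 ± 0.24), whose stages overlapped and which was past the threshold in some of the alternatives only. Among 16 other guidance genes, 12 were higher at ED16. The kinase CDK5 had 67.4, 54.9 and 60.7 RPKM against 17.6, 15.4 and 27.1 (1.63 ± 0.27). VAV3, an exchange factor of lymphocyte receptor signaling, had 14.2, 18.1 and 22.2 against 92.6, 98.8 and 70.0 (-2.20 ± 0.20). SLIT2 and UNC5A, a guidance ligand and a netrin receptor, had no count at ED19.

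The domain annotation of the same table matched the names in 8 of 8 Wnt ligands, 14 of 14 semaphorins, 10 of 10 TGF-beta family ligands and 4 of 6 Wnt receptors, the others being RYK and LRP6, which are not Frizzled proteins. Beyond the 104 genes, 3 called genes without a symbol carried a semaphorin domain (1) or a TGF-beta domain (2). All 3 were higher at ED16 and below an RPKM of 1, ENSGALG00000003203 with the semaphorin domain at 47, 36 and 14 reads against 1, 5 and 4.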

How the data were processed

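RNA-seq of bursal B-cells was compared between ED16 and ED19, with 3 libraries per stage, grouped by the labels. Per the labels and methods, the authors aligned clean reads to galGal4 with TopHat2 2.0.12 and deposited counts per gene from HTSeq. The authors also deposited RPKM, which was checked to equal the count per kilobase and per 1000000 counted reads. The authors' table of called genes gives per stage a signal, checked to equal their mean normalized count, and symbols, domains and DESeq results, of which the log2 fold changes and p-values were not used. Whether counting used strand is not given in the sources used here, so overlapping genes on opposite strands cannot be told apart.

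Members were all symbols in that table matching the family names, except LRP2. Members, roles and lists were chosen with earlier results of these data known. Genes named are, per family, role and direction, the most abundant and the one with the largest fold change (mean of at least 50 counts), members at 5 RPKM or more at ED19 and higher there, the Wnt receptors the paper lists, and the most abundant pathway genes per list and direction; further members and pathway genes were named after their values were seen.

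Counts of 13923 genes kept by filterByExpr were fitted with edgeR 4.0.16 (R 4.3.3; TMM, quasi-likelihood F test, Benjamini-Hochberg adjustment, threshold 0.05). The SE is the log2 fold change divided by the square root of F. A fold against a stage without counts sets 3 counts in each of its libraries and is a lower bound, and ratios with 1 to 3 ED19 counts have exact 95% binomial intervals. Alternatives were upper-quartile and DESeq2 1.42.0 size factors, leaving out each library, a loess correction for gene length, no filter or a minimum of 10 counts per library, DESeq2, and limma 3.58.1 on log2(RPKM + 1) or log2(RPKM + 0.1). The fits were tested on simulated data. Python 3.11.15 with numpy 2.4.6, pandas 2.3.3 and matplotlib 3.10.9 made tables and figures. The p-values measure the spread between pools of 1 hatchery line. Sequences and genome positions were not used here. Some items are not reported here.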

Additional observations from a re-analysis of the deposited data

How the results depend on the processing

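No paired analysis was possible because the replicate numbers of the stages (1 to 3 and 4 to 6) are not shared. Requiring at least 10 counts in every library left 25 of the 104 genes higher at ED16, with a median log2 fold change of 1.11, 25 family genes and 32 pathway genes called higher at ED16, since genes with few ED19 reads, such as FZD7 and EPHB3, were then not fitted. On log2(RPKM + 1) the median was 0.62, as the added 1 compresses levels below 1. With a mean RPKM of at least 1, an alternative chosen after seeing the data, 38 genes were higher at ED16 and 17 at ED19. Leaving out each library gave 76 to 79 genes higher at ED16, counting genes newly fitted, and 18 to 18 at ED19, a median of 2.31 to 2.66, 74 to 79 and 15 to 18 family genes called higher at ED16 and ED19, and 60 to 65 and 23 to 26 pathway genes. LRP5, which ran from -0.30 to 0.12 without 1 library, turned positive with at least 10 counts in every library (0.048), with the length correction (0.36), with upper-quartile factors (0.13), without ED16 replicate 1 (0.12) and without ED19 replicate 5 (0.02), and FZD1 turned negative without ED19 replicate 6 (-0.066; up to 0.33 without another library); the cause was not tested. Upper-quartile factors moved the median of all genes to 0.26, DESeq2 to 0.26 and no filter to 0.24, against 0.05. Depth limits the 49 genes below an RPKM of 1 at both stages, for which a count of 0 at ED19 does not show absence.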
